A study of Mus musculus with 30 samples.

Results

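Nascent transcription of the Hox cluster genes was followed over 48 h in mouse embryonic stem cells from which H3K9 methyltransferases were being removed. The members were taken from the deposited table as every gene whose symbol is HOX, a cluster letter from A to D and a number, which gave 34 of the 20541 genes of the table. They are 8 genes of the Hoxa cluster, 10 of the Hoxb cluster, 7 of the Hoxc cluster and 9 of the Hoxd cluster. That rule uses no measured value, although the Hox genes were chosen with earlier results of these data known. Symbols are written here in mouse style.

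All libraries came from 1 line of embryonic stem cells, labelled dTKO, with the genotype Suv39h1fl/fl ; Suv39h2-/- ; Setdb1fl/fl. Cells were given dTAG13 (0.5 µM) together with auxin (100 µg/ml), which are ligands that trigger breakdown of proteins carrying matching degron tags, and were taken at 0, 3, 12, 24 or 48 h. The 0 h samples carry the same genotype and treatment label with a time of 0, and are the baseline named by the study. Each time had 3 biological repeats (n = 3 for every mean ± SD below), grown in medium with LIF and serum on gelatin, and RNA made during 10 min of 4-thiouridine was sequenced (TT-seq). The sources used here do not say which protein carries which tag or how many clones were used.

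Hox genes encode homeodomain transcription factors that give cells their position along the body axis. The mouse has 4 clusters on separate chromosomes, and genes with the same number in different clusters are paralogues; low numbers are expressed early and towards the head, high numbers later and towards the tail. In embryonic stem cells the clusters are a standard example of silencing by Polycomb, whose complex PRC2 places H3K27 methylation and whose complex PRC1 ubiquitinates H2A, and they lie outside the H3K9-methylated heterochromatin that the Suv39h enzymes and Setdb1 maintain. The comparison therefore follows genes known to be held by the other repressive system. Histone marks were not measured in these libraries.

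In mm10 the members spanned chromosome 6 (Hoxa), chr11:96194361-96368253 (Hoxb), chr15:102921131-103036852 (Hoxc) and chr2:74668310-74765142 (Hoxd). Promoters were read from RefSeq (GRCm38.p6), where 20 of the 34 members matched with 22 promoters. Members rich and poor in CG are shown, since CpG-rich promoters are the usual place of Polycomb binding. Each sequence is the 250 bases before the annotated start, 5′ to 3′ on the gene's strand, with every CG in capitals. Hoxa3 is shown as the matched member with the highest mean level, not divided by length (chr6:52213068-52213317, minus strand, 18 CG). Hoxd13 is the one with the most CG (chr2:74667975-74668224, plus strand, 31 CG). Hoxd4 is the member with the lowest level per kilobase at 0 h (chr2:74721728-74721977, plus strand, 3 CG). Hoxa3 and Hoxd4 were thus chosen on unlike measures. Per kilobase at 0 h, Hoxa3 stood at 0.333, below the median member at 0.399, and Hoxd13 stood at 1.35. The highest matched member per kilobase was Hoxb1, at 1.56 with 7 CG. A link between CG and level was not tested.
Hoxa3: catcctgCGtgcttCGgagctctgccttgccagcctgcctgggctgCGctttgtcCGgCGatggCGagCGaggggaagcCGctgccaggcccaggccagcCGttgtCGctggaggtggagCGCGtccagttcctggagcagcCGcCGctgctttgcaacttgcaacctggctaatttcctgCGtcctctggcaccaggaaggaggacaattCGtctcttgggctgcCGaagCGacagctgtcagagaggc
Hoxd13: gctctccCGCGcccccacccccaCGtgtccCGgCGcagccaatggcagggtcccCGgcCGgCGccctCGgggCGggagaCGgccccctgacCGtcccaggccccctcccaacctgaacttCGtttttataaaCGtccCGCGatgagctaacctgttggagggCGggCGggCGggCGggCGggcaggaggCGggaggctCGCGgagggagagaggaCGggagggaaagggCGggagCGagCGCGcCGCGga
Hoxd4: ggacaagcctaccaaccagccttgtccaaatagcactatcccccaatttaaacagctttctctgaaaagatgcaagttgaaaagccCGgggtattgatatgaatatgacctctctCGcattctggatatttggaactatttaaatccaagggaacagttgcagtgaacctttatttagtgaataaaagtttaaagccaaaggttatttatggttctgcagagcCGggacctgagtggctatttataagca

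The 22 Hox promoters held a median of 12 CG (2 to 31), against a median of 6 over 32851 promoters of all genes. At least 10 CG stood in 13 of the 22 (59.1%), and in 37.8% of all promoters. The letters TATAAA on either strand were found in 4 of the 22 (18.2%) and in 12.4% of all. The Hoxb cluster also holds a microRNA gene, Mir196a-1, whose product is known to repress Hox messages. Its mature arm is given with the seed, bases 2 to 8, in capitals (GRCm38.p6, chr11:96265187-96265208, plus strand).
mmu-miR-196a-5p: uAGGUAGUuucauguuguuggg

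Values are reads per gene divided by 1 size factor per library, called scaled reads. The libraries held 37.1 to 42.3 M (mega) recovered reads, of which 16.4 to 22.9 M lay in genes other than the ribosomal precursor Rn45s. Of these, only 111 to 203 reads per library lay in the 34 Hox genes together, or 6.78 to 10.5 per M. With the deposited scaling, the median log2 change of all tested genes from 0 h was -0.24, 0.18, -0.08 and -0.37 at 3, 12, 24 and 48 h in turn. Values were therefore also rescaled so that the median gene did not move. Of the 3 genes of the H3K9 methyltransferases named in the genotype, Setdb1 (846 to 732 scaled reads, log2 change -0.21, limma adjusted p = 0.129) and Suv39h1 (483 to 455, log2 change -0.08, adjusted p = 0.562) did not pass the test from 0 to 48 h, and rescaled they rose (0.15 and 0.28, adjusted p = 0.00377 and 5.73e-05). Suv39h2 fell (1092 to 803, log2 change -0.44, adjusted p = 0.00112), and rescaled it did not pass the test (-0.08, adjusted p = 0.116). Suv39h2 thus had the highest level of the 3 genes although its label is -/-. The values are totals over each gene from start to end, and the sources used here do not say which part of Suv39h2 was deleted, so that label could not be checked. The other two genes are labelled fl/fl, and degrons act on protein, so their nascent RNA does not check the loss of the enzymes.

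The Hox genes were low throughout. In such bulk samples, fewer cells of a type and less RNA per cell cannot be told apart. The 34 members had a median mean of 1.31 scaled reads over the 15 libraries, from 0.269 for Hoxd12 to 25.4 for Hoxb9. Every member had some reads, between 5 and 472 over all libraries, and 12 members had reads in every library. A mean under 1 was found for 13 members and a mean under 5 for 27. Per kilobase of gene at 0 h, the median member stood at 0.399 scaled reads against 8.52 for the median gene of the table. Below 1 scaled read per kilobase lay 26 of the 34 members and 27.9% of all genes. At 48 h the median member stood at 0.336 per kilobase against 6.84 for all genes, and 30 members were below 1 against 28.8% of all genes.

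Hoxb9, a posterior-type gene, had the highest level per kilobase at 0 h (6.16, higher than 46.1% of all genes), and Hoxb2, an anterior gene active in the hindbrain, stood at 3.25. Hoxc13, known from hair and nail, stood at 1.88 scaled reads per kilobase. The lowest was Hoxd4 at 0.0763. The 11 genes of paralogue groups 1 to 4 had a median of 0.774 scaled reads per kilobase at 0 h, the 10 genes of groups 5 to 8 had 0.397, and the 13 genes of groups 9 to 13 had 0.264. At 48 h the medians were 0.583, 0.358 and 0.118, and the order was the same at 3 and 12 h. At 24 h groups 5 to 8 and groups 9 to 13 both had 0.244. Groups 1 to 4 gave 47.9% of all Hox scaled reads at 0 h and 47.7% at 48 h, groups 5 to 8 gave 8.84% and 10.3%, and groups 9 to 13 gave 43.3% and 42.0%. These shares are not divided by length.

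**Figure D1:**
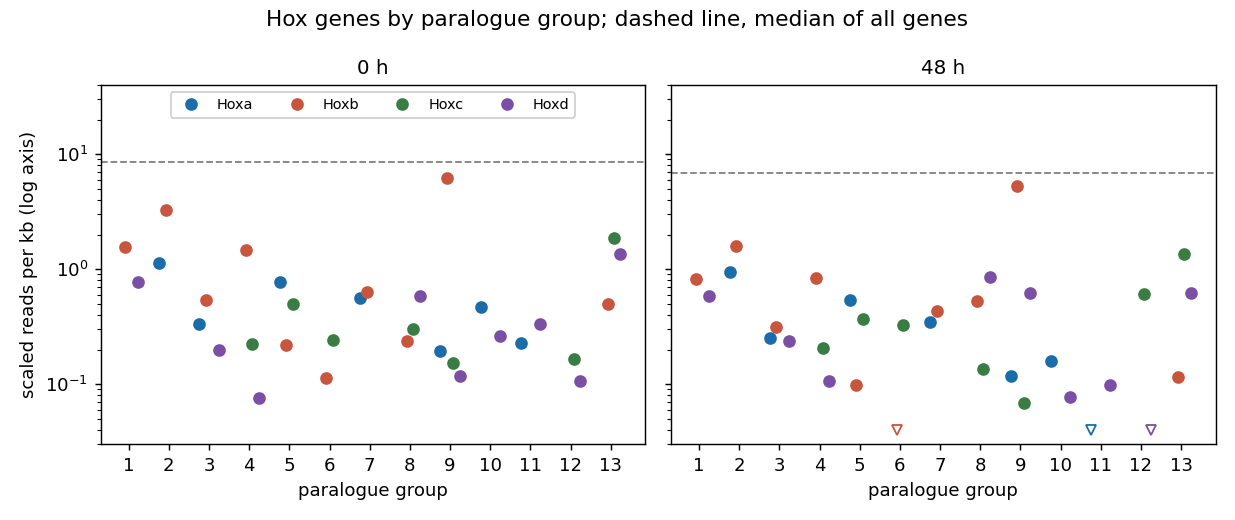
Scaled reads per kilobase (log axis) of the Hox genes shown at 0 h and 48 h, by paralogue number from 1 to 13 and coloured by cluster; the dashed line is the median of all genes, and open triangles at the lower edge of the 48 h panel are Hoxb6, Hoxa11 and Hoxd12, which had no reads there. Hoxb9 is the highest gene in both panels, at 6.16 and 5.34.

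Only 5 members reached a mean of 10 scaled reads, the minimum for the main test (limma on log2 of scaled reads plus 1, 15261 genes, adjusted p below 0.05 called). Among these were Hoxb9 (25.4), Hoxa3 (13.6), Hoxc13 (12.5) and Hoxb3 (12.4). Hoxd3 (7.97) and Hoxb2 (6.59) were the nearest below it, and no Hoxd member passed. The other 29 members were fitted without a minimum, over 20532 genes, and their read ratios are given with counting intervals.

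No Hox gene was called higher than at 0 h at any later time when all 15 libraries were used. Of the 5 tested members 0 rose at 3, 12, 24 and 48 h, where 0.636%, 12.9%, 7.21% and 7.65% of all tested genes were called up by limma, and 0 did so at an unadjusted p under 0.05. With no minimum, 0 of the 34 were called up at each time, against 0.404%, 9.58%, 6.38% and 7.47% of all genes. At an unadjusted p under 0.05 that fit had 1 rise at 24 h (Hoxb6) and 1 at 48 h (Hoxd9), and none at 3 or 12 h. Without the third 0 h library, the only one at 0 h with a read of Hoxd9, Hoxd9 was called up at 48 h (1 of 34). edgeR on recovered reads called 0 up at every time. DESeq2 called 0 up at 12, 24 and 48 h, but gave no adjusted p for 1 of the 5 tested members at 12 h. In the authors' deposited table all 34 members carry the call noChange at all 4 later times.

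Falls were called for 1, 0, 0 and 1 of the 5 tested members at the 4 later times in turn, where 13.5%, 2.07%, 12.2% and 58.4% of all tested genes fell. The gene at 3 h was Hoxb9 and the gene at 48 h was Hoxb3. At an unadjusted p under 0.05, limma had no fall at 12 h and 2 at 24 h. edgeR and DESeq2 called 0 at both times, with no adjusted p from DESeq2 for 1 member at 12 h. At 48 h DESeq2 called 0 of the members down, so Hoxb3 was not called by that tool. Rescaled over genes, the falls were 0, 1, 0 and 0 of the 5 (8.13%, 14.9%, 21.8% and 29.0% of all tested genes) and the rises 0 at every time (4.98%, 15.8%, 21.7% and 29.8%), with no rise at an unadjusted p under 0.05. The rescaled fall was that of Hoxb9 at 12 h.

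Hoxb9, whose protein patterns the posterior trunk, had 39.8, 27.45 and 30.0 scaled reads at 0 h, and 19.6, 17.2 and 22.5 at 3 h. The 12 h libraries had 22.8, 30.0 and 19.3, the 24 h libraries 20.8, 27.1 and 20.3, and the 48 h libraries 26.6, 28.7 and 29.0. All 3 libraries at 3 h and all 3 at 24 h lay below those at 0 h, while the 12 h and 48 h libraries overlapped them. The mean went from 32.4 ± 6.54 at 0 h to 19.8 ± 2.66 at 3 h (log2 change -0.68, SE 0.23, limma adjusted p = 0.0334) and 28.1 ± 1.32 at 48 h (log2 change -0.18, adjusted p = 0.484). The fall at 3 h did not pass after rescaling (log2 change -0.45, adjusted p = 0.124), and without the first 0 h library, the highest of all, its adjusted p was 0.150. Leaving out either of the other 0 h libraries or the first or second 3 h library also ended the call (adjusted p up to 0.212).

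Hoxb3, an anterior gene of the hindbrain, had 13.8, 15.8 and 10.3 scaled reads at 0 h and 14.9, 9.54 and 16.3 at 3 h. The 12 h libraries had 12.7, 17.3 and 16.7, the 24 h libraries 11.6, 14.03 and 9.73, and the 48 h libraries 8.12, 6.20 and 9.17. The 3 libraries at 48 h were the lowest of all 15 with the deposited scaling, and no other time was separate from 0 h. Rescaled, the 48 h libraries overlapped those at 0 h. The mean fell from 13.3 ± 2.79 to 7.83 ± 1.51 at 48 h (log2 change -0.69, SE 0.31, limma adjusted p = 0.0378), beside a median of -0.37 for all tested genes. Rescaled, the change was -0.36 with an adjusted p of 0.221. By DESeq2 the fall of Hoxb3 had an adjusted p of 0.0909. The limma call was also lost without the first or second library of either time (adjusted p up to 0.151).

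Hoxc13 had 15.4, 14.1 and 13.7 scaled reads at 0 h. The 3 h libraries had 11.5, 17.2 and 7.75, the 12 h libraries 13.5, 9.10 and 12.3, the 24 h libraries 14.1, 14.03 and 14.2, and the 48 h libraries 11.1, 10.8 and 9.17. The 12 h and 48 h libraries lay below all those at 0 h with the deposited scaling and overlapped them when rescaled. The change at 48 h (14.4 ± 0.90 to 10.4 ± 1.04, log2 -0.44) did not pass the test (limma adjusted p = 0.182). Hoxa3, a gene of the hindbrain and neck, had 17.9, 16.6 and 9.43 scaled reads at 0 h. The 3 h libraries had 20.3, 12.7 and 10.9, the 12 h libraries 14.4, 16.4 and 23.7, the 24 h libraries 9.14, 12.2 and 7.08, and the 48 h libraries 14.03, 9.30 and 9.93. Its groups overlapped at every time. The mean was 14.7 ± 4.56 at 0 h and 11.1 ± 2.57 at 48 h (log2 change -0.35, adjusted p = 0.293).

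**Figure D2:**
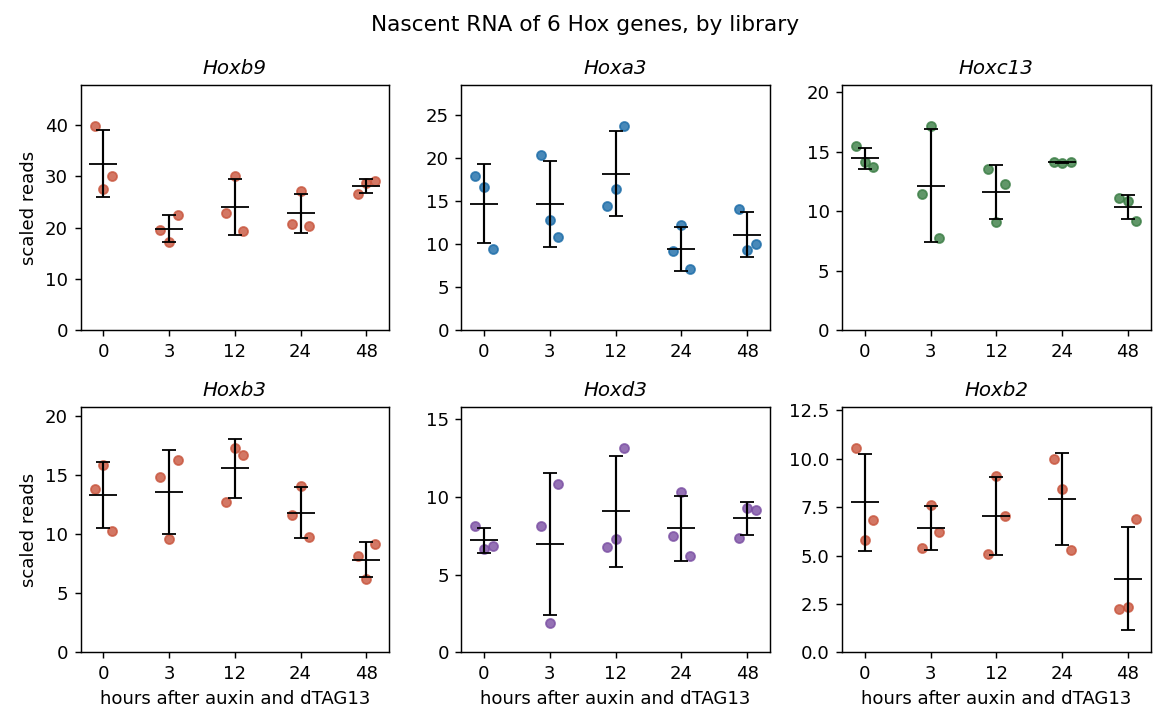
Scaled reads of 6 Hox genes, 1 panel each, against hours after auxin and dTAG13; each dot is a library, and black bars are the mean ± SD of the 3 libraries of a time. The 48 h dots of Hoxb3 and Hoxc13 and the 3 h dots of Hoxb9 lie below all dots at 0 h, while Hoxa3, Hoxd3 and Hoxb2 overlap 0 h at 3 and 48 h.

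The upper 95% limit of the fitted fold at 48 h was 1.21 for Hoxb9, 1.18 for Hoxa3, 1.11 for Hoxc13 and 0.939 for Hoxb3, so rises larger than these lay outside the interval. Rescaled, the limits were 1.47 for Hoxb9, 1.48 for Hoxa3, 1.38 for Hoxc13 and 1.11 for Hoxb3. These folds are on the scale of scaled reads plus 1.

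The 29 members below the minimum rest on few reads, and for many of them a change of 2-fold was not detectable. The ratio of pooled scaled reads to those at 0 h was bounded below 2 for 13, 9, 14 and 11 of the 34 members at the 4 times (exact conditional binomial intervals at 95%, counting error only). A lower limit over 1 was found for 0 members at every time, where 0.774%, 46.0%, 14.9% and 9.86% of all genes had one. An upper limit under 1 was found for Hoxb9 at 3 and 12 h, for Hoxb9 and Hoxc5 at 24 h, and for Hoxa10, Hoxb2 and Hoxb3 at 48 h. Of all genes, 55.3%, 6.30%, 32.5% and 57.6% had one. Rescaled, the upper limits at 48 h were 1.18 for Hoxa10, 1.22 for Hoxb2 and 1.21 for Hoxb3, so no member had one under 1 there, where 26.6% of all genes did. Hoxb9 at 3, 12 and 24 h (0.951, 0.869 and 0.988) and Hoxc5 at 24 h (0.948) kept a rescaled limit under 1. Of all genes, 14.4% had one at 3 h and 22.6% at 24 h, and the share at 12 h is not reported here. Depth differs between the members and all genes, so a shallow gene has a limit past 1 less often. The median ratio of the 34 members was 0.829, 0.986, 0.793 and 0.645 at the 4 times, and at 48 h the ratio was under 1 for 27 members and over 1 for 7.

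**Figure D3:**
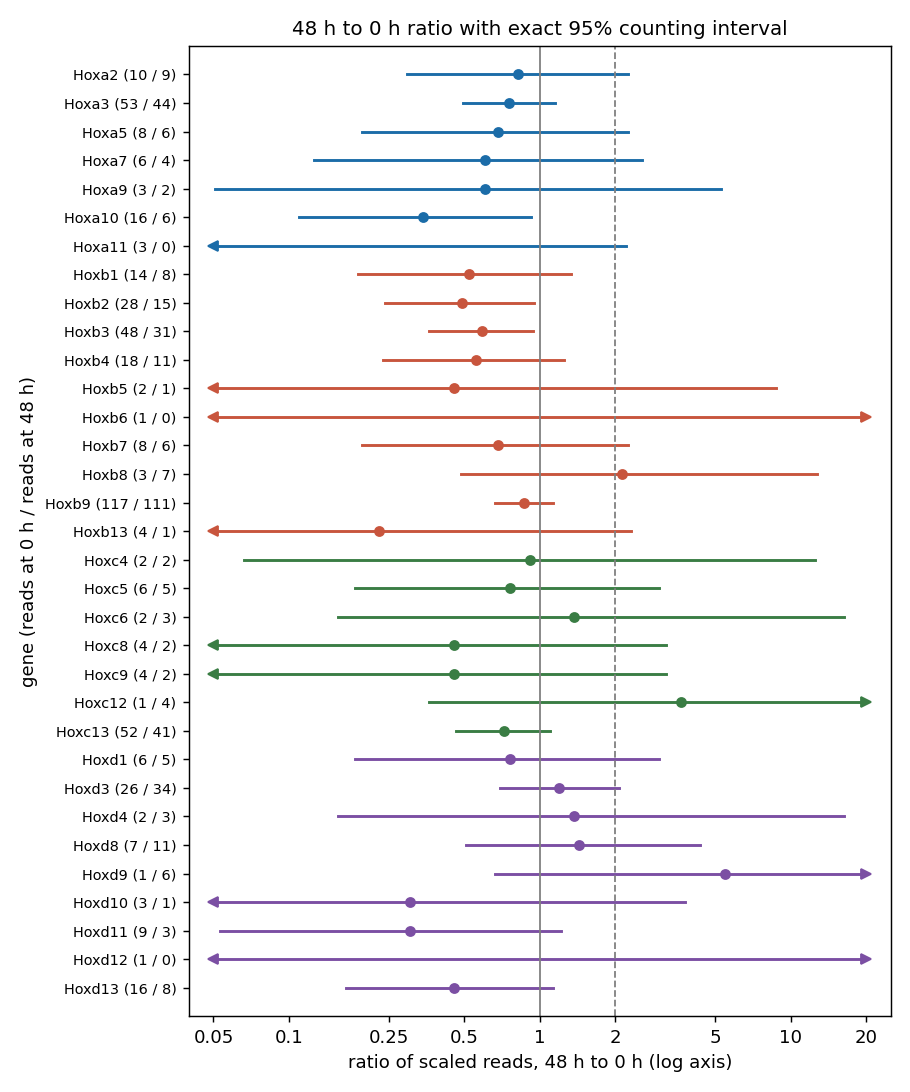
Ratio of scaled reads at 48 h to 0 h for the Hox genes shown (log axis) with its 95% counting interval; the solid line is 1, the dashed line 2, arrows mark intervals beyond the axis, and genes without reads at 48 h have no dot. Hoxb9, Hoxa3, Hoxb3 and Hoxc13 have upper limits under 2, and no interval lies wholly above 1.

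Without the minimum, limma called 0, 0, 1 (Hoxc5) and 4 members down at the 4 times, beside 8.18%, 1.73%, 10.2% and 45.4% of all genes. At an unadjusted p under 0.05 there were 2 falls at 3 h and 0 at 12 h. The 4 genes at 48 h were Hoxa10, Hoxb2, Hoxb3 and Hoxd11, and only 1 was called without the first 0 h library or without the first or second 48 h library. Rescaled, 0, 1, 1 and 0 of the 34 were called down (5.55%, 10.7%, 16.9% and 22.7% of all genes) and 0 up at every time (3.22%, 11.5%, 16.9% and 24.2%). At an unadjusted p under 0.05, rescaled, there were 2 falls at 3 h and 1 at 48 h, and 1 rise each at 24 and 48 h. Hoxb2, a hindbrain gene, had 10.6, 5.82 and 6.86 scaled reads at 0 h and 2.22, 2.32 and 6.88 at 48 h, with overlap (log2 change -0.96, SE 0.34, adjusted p = 0.0121). Hoxa10, known for its role in the uterus and limb, had 2.44, 3.33 and 7.72 at 0 h and 0, 3.10 and 1.53 at 48 h, also with overlap (log2 change -1.22, SE 0.41, adjusted p = 0.00824). Hoxd11, a limb gene, rests on 9 reads at 0 h and 3 at 48 h. Hoxc5 had 6 reads at 0 h and none at 24 h, a ratio whose upper limit is 0.898.

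A few low members had higher ratios with wide intervals. Hoxd9 had 1 read at 0 h and 6 at 48 h, a ratio of 5.46 (0.663 to 251), and Hoxc12 had 1 and 4, a ratio of 3.64 (0.360 to 179). Hoxb1, the hindbrain gene that marks rhombomere identity, had 3.25, 4.16 and 4.29 scaled reads at 0 h. The 12 h libraries had 5.07, 12.7 and 5.26, and the 48 h libraries 1.48, 2.32 and 2.29. Its 12 h libraries all lay above and its 48 h libraries all below those at 0 h. The 12 h ratio was 1.95 (0.983 to 4.05), and the fit without a minimum gave a log2 change of 0.72 (adjusted p = 0.193) at 12 h and -0.70 (adjusted p = 0.103) at 48 h. Hoxd3, the Hoxd gene with the highest mean, had 8.13, 6.65 and 6.86 scaled reads at 0 h, and its 48 h libraries had 7.38, 9.30 and 9.17. These overlapped, and the ratio was 1.19 (0.693 to 2.07).

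Further anterior genes, of groups 1 to 4, were Hoxb4, Hoxa2, Hoxd1, Hoxc4 and Hoxd4. Hoxb4, known for its action in blood stem cells, had 6.50, 4.99 and 3.43 scaled reads at 0 h, and its 48 h libraries had 0.739, 2.32 and 5.35. The groups overlapped (ratio 0.556, 0.237 to 1.24). Hoxa2, which patterns the second pharyngeal arch, had means of 2.74 and 2.27, and Hoxd1 had 1.67 and 1.26. Hoxc4 and Hoxd4 had 0.548 each at 0 h, with 0.509 and 0.759 at 48 h.

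Of the 10 genes of groups 5 to 8, which pattern the thorax, none had a mean of 3 scaled reads at 0 or 48 h. Hoxb7 (2.21 and 1.52), Hoxa5 (2.21 and 1.53), Hoxd8 (1.95 and 2.81), Hoxc5 (1.69 and 1.27) and Hoxa7 (1.65 and 1.01) had the most reads at 0 h. Hoxc8 (1.11 and 0.504), Hoxb8 (0.813 and 1.80), Hoxb5 (0.572 and 0.255) and Hoxc6 (0.563 and 0.763) had fewer. Hoxb6 had 1 read at 0 h, 4 at 12 h, 5 at 24 h and none at 48 h.

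Of the posterior genes of groups 9 to 13, which act in the lumbar to tail region, limbs and genital tract, only Hoxb9 and Hoxc13 were tested. Hoxd13, a digit gene, had 6.50, 1.66 and 5.14 scaled reads at 0 h, and its 48 h libraries had 2.22, 2.32 and 1.53. The groups overlapped (ratio 0.455, 0.169 to 1.13). Hoxc9 (1.13 and 0.504), Hoxb13 (1.11 and 0.258), Hoxd10 (0.849 and 0.246) and Hoxa9 (0.834 and 0.504) had means of about 1 or less. Hoxa11 had 3 reads at 0 h and none at 48 h, a ratio with an upper limit of 2.20, and Hoxd12 had 1 and none.

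The 7 members with a ratio over 1 at 48 h were Hoxb8, Hoxc6, Hoxc12, Hoxd3, Hoxd4, Hoxd8 and Hoxd9, of which 4 lie in the Hoxd cluster. Their intervals all contain 1. Counted by separation alone, all 3 libraries of a time lay above 0 h for 0, 1 (Hoxb1), 1 (Hoxb6) and 0 members at the 4 times. The shares of all genes were 1.14%, 20.2%, 9.99% and 9.21%. All 3 lay below for 3 members after 3 h (Hoxa5, Hoxb9 and Hoxd11) and for Hoxc13 alone after 12 h. After 24 h they were Hoxb9 and Hoxc5, and after 48 h Hoxa9, Hoxb1, Hoxb3 and Hoxc13 (4 members). The shares of all genes were 42.7%, 4.77%, 15.1% and 56.8%. Some of these separations come from the size factors alone, since the nearest library of either time held the same number of reads. That number was 1 for Hoxa5 at 3 h, Hoxb6 at 24 h and Hoxa9 at 48 h, 2 for Hoxd11 at 3 h, 12 for Hoxb3 at 48 h and 16 for Hoxc13 at 12 h. Rescaled, Hoxc13 at 12 h and Hoxa9, Hoxb3 and Hoxc13 at 48 h overlapped 0 h, which left Hoxb1 at 48 h.

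With the deposited scaling, the summed scaled reads of 3 clusters were lower at 48 h in every library, and those of the fourth overlapped. Of all single genes, 56.8% had all 3 libraries at 48 h below those at 0 h. The Hoxa sum was 44.7, 44.9 and 32.6 scaled reads at 0 h and 29.5, 32.5 and 28.3 at 48 h, so every 48 h library was lower (ratio 0.737, 0.574 to 0.945). The Hoxb sum was 80.5, 62.4 and 59.2 at 0 h and 40.6, 48.0 and 56.5 at 48 h, again without overlap (ratio 0.715, 0.589 to 0.868). The Hoxc sum was 18.7, 19.1 and 21.4 at 0 h and 14.8, 17.8 and 12.2 at 48 h, also without overlap (ratio 0.756, 0.526 to 1.08). The Hoxd sum, 21.1, 17.5 and 20.6 at 0 h and 17.0, 20.1 and 16.8 at 48 h, overlapped (ratio 0.910, 0.646 to 1.28). The intervals of the 4 clusters overlap each other, and their difference was not tested.

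**Figure D4:**
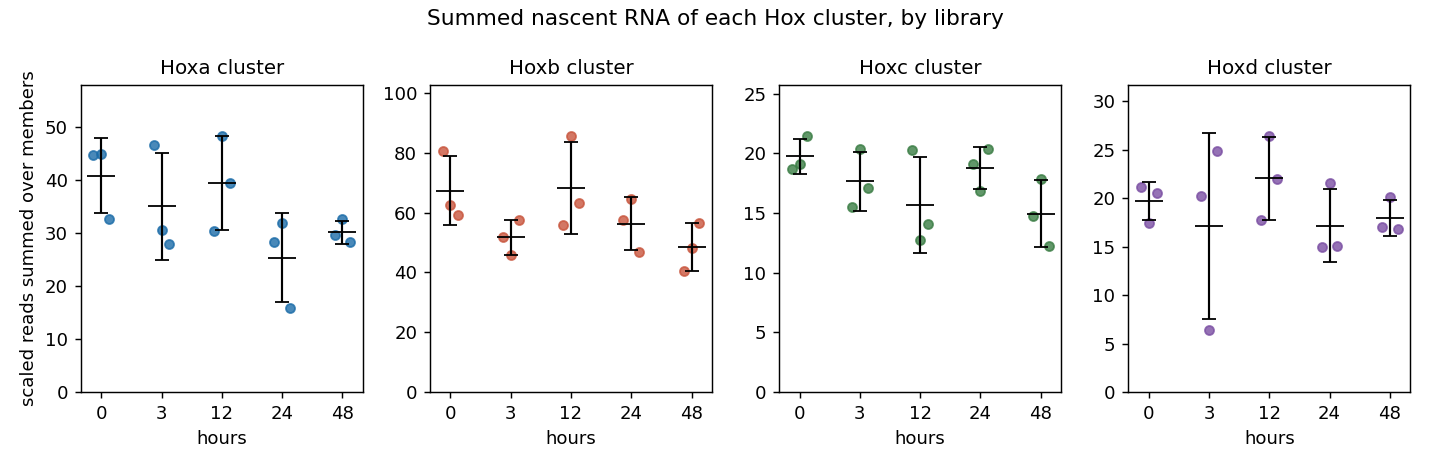
Summed scaled reads of the members of each cluster against time (h); each dot is a library, and black bars are the mean ± SD of the 3 libraries of a time. All 3 libraries at 48 h are below all 3 at 0 h for Hoxa, Hoxb and Hoxc, and overlap them for Hoxd; Hoxd is widest at 3 h, from 6.36 to 24.8.

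These separations and ratios depend on the scaling. When the sums were rescaled, the 48 h libraries of every cluster overlapped those at 0 h. Rescaled, the 48 h ratios were 0.949 for Hoxa (0.739 to 1.22), 0.921 for Hoxb (0.758 to 1.12), 0.974 for Hoxc (0.678 to 1.40) and 1.17 for Hoxd (0.831 to 1.65). Over all 34 members the sum went from 148 ± 15.96 to 111.4 ± 8.57 scaled reads, a ratio of 0.753 (0.662 to 0.856), and 0.969 when rescaled (0.852 to 1.10). At 12 h the ratio was 0.979 as deposited and 0.863 rescaled (0.762 to 0.977), and at 24 h it was 0.793 (0.695 to 0.905) and 0.837 rescaled (0.733 to 0.955). The Hoxa cluster had the lowest ratio at 24 h, 0.619 (0.469 to 0.813) and 0.653 rescaled (0.494 to 0.858). The median log2 change of the 34 members without a minimum was -0.21, -0.01, -0.16 and -0.30 at the 4 times, beside -0.23, 0.16, -0.08 and -0.34 for all genes.

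Overlapping units share reads where strand or transcript cannot be told apart. Hoxa5 lies within the Hoxa3 gene on the same strand (2834 bp shared) and Hoxd4 within Hoxd3 (7182 bp), so their values are uncertain. Antisense genes cover all of Hoxa5, Hoxb5 and Hoxb6 and parts of Hoxa3, Hoxa11 and Hoxd3, and the sources used here do not give the strand setting of the counting.

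Of the named non-coding genes of the clusters, Hotairm1 and Gm53 had the most reads. Hotairm1, a non-coding RNA of the Hoxa cluster, had 24.5 ± 1.22 scaled reads at 0 h and 20.5 ± 1.15 at 48 h (log2 change -0.24, limma adjusted p = 0.38; rescaled 0.10, adjusted p = 0.671). Gm53, between Hoxb13 and Hoxb9 at chr11:96251660-96264484, fell from 340 ± 35.1 to 216 ± 10.5 (log2 change -0.65, adjusted p = 7.04e-06; rescaled -0.29, adjusted p = 0.000593). Haglr, beside Hoxd1, had 9.41 and 7.63 scaled reads at 0 and 48 h, and Mir196a-1, whose value is nascent reads over the hairpin gene, had 6.12 ± 2.68 and 4.55 ± 1.30. Hoxaas2 (5.31 and 5.84), Hoxaas3 (1.94 and 1.51), Hoxb5os (1.35 and 0.751), Hoxa11os (1.11 and 0) and Hoxd3os1 (0 and 0.509) had few reads at either time.

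Unnamed non-coding units lay in 2 of the 4 clusters, 1 in Hoxa and 6 in Hoxb. Of those tested, 2 fell at 48 h and 0 rose with the deposited scaling, where 39.4% of all tested non-coding units fell and 29.3% rose. One is chr6:52158401-52164601, which overlaps Hotairm1 (45.4 ± 4.98 to 31.2 ± 6.70, log2 change -0.54, limma adjusted p = 0.0180). The other is chr11:96246801-96252201 on the minus strand beside Gm53 (30.6 ± 4.09 to 19.8 ± 4.45, log2 change -0.62, adjusted p = 0.0170). Neither passed after rescaling (adjusted p = 0.364 and 0.265) or without the first 48 h library (adjusted p = 0.0584 and 0.129). The first also lost its call without the third library of 0 h (0.0744) or 48 h (0.0947), and the second without the second 0 h library (0.0759).

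Of the genes that flank the clusters, the 2 largest changes stood outside the Hox genes themselves. Of the 16 tested flanking genes, 14 fell and 0 rose at 48 h, and rescaled 7 fell and 2 rose. Of all tested genes, 58.4% fell and 7.65% rose at 48 h, and rescaled 29.0% fell and 29.8% rose. Halr1, a long non-coding RNA beside the Hoxa cluster, had 105, 97.3 and 92.6 scaled reads at 0 h and 32.5, 27.9 and 28.3 at 48 h, without overlap (log2 change -1.70, SE 0.18, adjusted p = 2.21e-20; rescaled -1.35). Its means at 3, 12 and 24 h were 73.0, 64.4 and 51.0. Further out, Skap2 (-0.36), an adaptor, and Hibadh (-0.49), a mitochondrial enzyme, also fell, and rescaled Skap2 did not pass the test (0.01, adjusted p = 0.89), nor did it without the second 0 h library (adjusted p = 0.0781).

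Beside the Hoxb cluster all 5 tested genes fell. Ttll6, a tubulin-modifying enzyme, went from 648 ± 91.4 to 184 ± 19.6 scaled reads (log2 change -1.81, SE 0.13, limma adjusted p = 1.74e-41; rescaled -1.45). Atp5g1 (-0.87), Snx11 (-0.71), Skap1 (-0.68) and Calcoco2 (-0.60) fell less. Beside Hoxc, all 5 tested genes fell with the deposited scaling, among them Calcoco1 (-0.49), Smug1 (-0.42), Hnrnpa1 (-0.42) and Copz1 (-0.39), and 0 when rescaled. Cbx5 of that group, which encodes the HP1 alpha protein that binds H3K9 methylation, went from 5091 to 4133 scaled reads (log2 change -0.30, adjusted p = 0.0247; rescaled 0.06). The call of Cbx5 was lost without the second 0 h library (adjusted p = 0.120) or the first (0.103) or second (0.0558) 48 h library, and that of Smug1 without the first 0 h library (0.0710). Beside Hoxd, Mtx2 fell (-0.42, adjusted p = 0.00231; rescaled -0.05, adjusted p = 0.305) and Lnp did not pass the test (-0.21, adjusted p = 0.132), and rescaled Lnp rose (0.16, adjusted p = 0.0036).

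**Figure D5:**
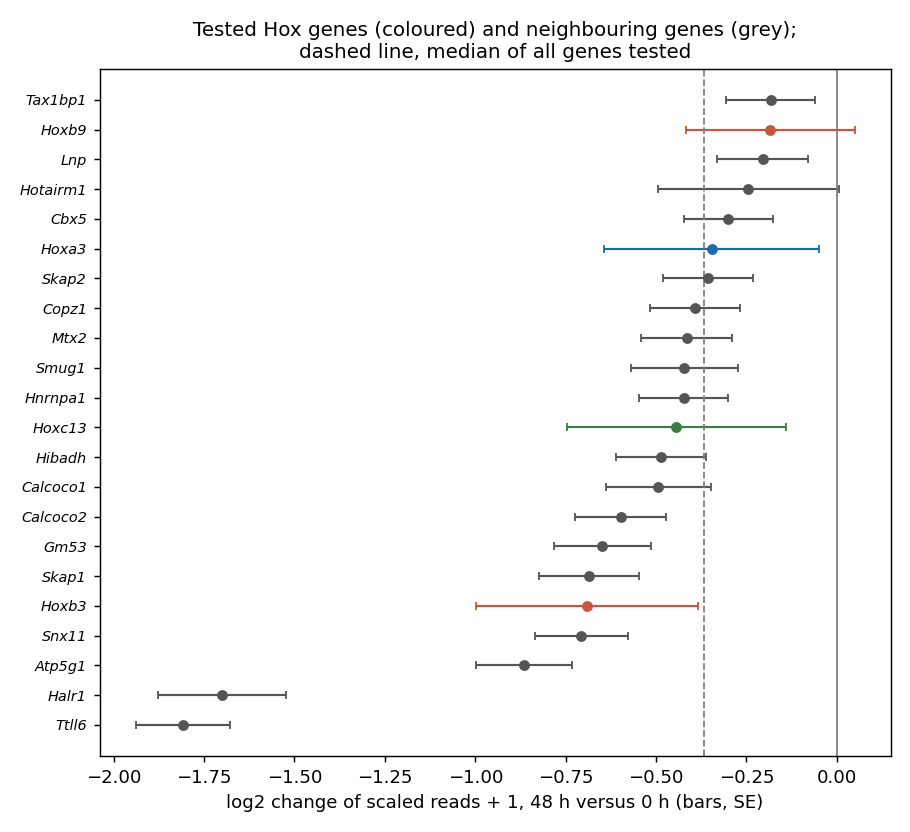
Fitted log2 change at 48 h against 0 h (bars, SE) for tested Hox genes (coloured) and the tested genes in and beside the clusters (grey); the dashed line is the median of all tested genes at -0.37 and the solid line is 0. Ttll6 and Halr1 lie far below the line at -1.81 and -1.70, and the Hox genes shown lie between -0.69 and -0.18.

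Evx1, the homeobox gene next to Hoxa13 and a target of posterior signals, was below the minimum. It had 12.2, 6.65 and 7.72 scaled reads at 0 h and 2.03, 1.27 and 3.88 at 3 h, without overlap. The fit without a minimum gave a log2 change of -1.57 at 3 h (limma adjusted p = 0.00177; rescaled -1.40, adjusted p = 0.0106) and -1.66 at 12 h (adjusted p = 0.000273). Evx1 stood at 7.10 scaled reads at 48 h, where the change of -0.25 did not pass the test (adjusted p = 0.589).

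With the deposited scaling, most tested genes of the repressing complex PRC2 fell at 48 h, as did 58.4% of all tested genes. Of 12 tested PRC2 genes, 0 rose and 10 fell at 48 h (median log2 change -0.49, against -0.37 for all tested genes), and rescaled 2 rose and 7 fell. Beside these and the lists that follow stand the shares of all tested genes at 48 h, 7.65% up and 58.4% down, and rescaled 29.8% and 29.0%. The largest fall of the list was in Phf19, an accessory subunit that guides PRC2 to CpG islands (277 ± 9.92 to 109 ± 10.3 scaled reads, log2 change -1.35, limma adjusted p = 2.42e-20). E130012A19Rik, the PRC2-associated gene also called Epop, fell (1159 to 527, log2 -1.14), as did the catalytic Ezh1 (881 to 551, -0.68) and Jarid2 (33477 to 21816, -0.61). These 4 fell after rescaling too.

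Of 25 tested PRC1 genes, 3 rose and 13 fell at 48 h (median -0.41), with falls near the 58.4% of all tested genes. Rescaled, 11 rose and 11 fell, where 29.8% of all tested genes rose and 29.0% fell. Bmi1, a core subunit of canonical PRC1, rose from 26.4 ± 5.59 to 79.8 ± 18.4 scaled reads (log2 change 1.56, SE 0.20, limma adjusted p = 3.19e-14; rescaled 1.91). Scmh1 (4343 to 2202, -0.98), Phc1 (4188 to 2455, -0.77) and Pcgf2 (824 to 489, -0.75), other parts of PRC1, fell. The opposing trithorax and H3K27 demethylase genes had 0 rises and 8 falls among 11 tested (median -0.38), led by Kmt2b (980 to 582, -0.74), and 3 rises and 5 falls rescaled.

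Genes that act upstream of the clusters were also read. Of 17 tested genes of the retinoic acid pathway, which switches on 3′ Hox genes, 1 rose and 10 fell at 48 h (median -0.49; rescaled 5 rose and 7 fell), a share of falls near the 58.4% of all tested genes. Crabp1, a retinoic acid carrier, fell from 59.4 ± 5.46 to 21.3 ± 2.47 scaled reads (log2 change -1.44, limma adjusted p = 7.93e-12), and the receptors Rarg (-0.74) and Rara (-0.64) fell. Of 8 tested axial regulators 0 rose and 7 fell (median -0.84), and rescaled 0 rose and 4 fell. Fgf8 (61.5 ± 13.3 to 21.8 ± 3.66, -1.44), Gbx2 (68.1 to 30.0, -1.17), Wnt3a (47.0 to 22.5, -1.03) and Wnt8a (115 to 58.0, -0.97) were among them. Of the 9 TALE genes, whose proteins bind DNA with Hox proteins, 0 rose and 3 fell (Pbx4 -0.65, Pknox1 -0.54 and Meis2 -0.38; median -0.10), and rescaled 4 rose and 2 fell. Meis2 did not pass after rescaling (-0.02, adjusted p = 0.779).

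Other developmental genes known as Polycomb targets in embryonic stem cells were followed beside the Hox genes. Of 38 tested, 14 rose and 10 fell at 48 h (median log2 change 0.18), and rescaled 21 rose and 8 fell. With the minimum set on 0 h alone, 11 of 35 rose and 10 fell (median 0.11). At 3, 12 and 24 h the rises were 0, 2 and 5 of the 38 and the falls 6, 2 and 4, where 0.636%, 12.9% and 7.21% of all tested genes rose and 13.5%, 2.07% and 12.2% fell. Lmx1a, a homeobox gene of the midbrain, had 17.9, 17.5 and 18.9 scaled reads at 0 h and 105, 108 and 90.2 at 48 h, without overlap (log2 change 2.42, SE 0.21, limma adjusted p = 1.4e-29). Pax3, of the neural crest and muscle, rose from 163 ± 16.5 to 282 ± 8.82 (0.79, adjusted p = 1.09e-07). Olig2 (218 to 110, -0.98), of motor neuron progenitors, fell. Without a minimum, 18 rose and 13 fell among all 91 listed genes (median 0.11), against 0 and 4 among the 34 Hox genes in the same fit. Of all genes in that fit, 7.47% rose and 45.4% fell. A mean of 10 scaled reads was reached by 38 of the 91 listed genes and by only 5 of the 34 Hox genes. The 2 counts of rises thus stand at unlike depth, and a change was harder to detect among the Hox genes. The difference between the lists was not tested.

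Markers of the labelled cell type and of others were read in the same libraries. Summed pluripotency markers lay between 19099 and 21171 scaled reads per library at 0 h and between 12136 and 12852 at 48 h. Of 13 genes 11 fell, among them Pou5f1 (974 to 461) and Fgf4 (833 to 247), and 2 rose, with the same counts when rescaled. Of all tested genes 58.4% fell and 7.65% rose, and rescaled 29.0% and 29.8%. Mesoderm and axial progenitor markers lay between 280 and 303 at 0 h and between 131 and 160 at 48 h, and all 4 tested genes fell (3 when rescaled). Fgf8, Wnt3a and Wnt8a are among these 4 and were already counted above as axial regulators. Msgn1, a presomitic mesoderm gene, had no reads at 12 and 24 h. Neural markers, from 1349 to 1457 per library at 0 h, stood at 947 to 1013 at 48 h (2 of 8 tested genes rose and 3 fell, also when rescaled, and 1 of 7 rose with the minimum set on 0 h alone). Endoderm markers, from 1283 to 1491 before, stood at 736 to 799 (0 of 6 rose and 2 fell, and rescaled 3 rose and 2 fell). Trophectoderm markers, from 687 to 700 before, stood at 532 to 662 (1 of 5 rose and 3 fell, and rescaled 2 rose and 1 fell). Fibroblast markers, from 389 to 486 at 0 h, stood at 510 to 676. Of the 6 fibroblast markers that passed the minimum at 0 h alone, 4 rose and 1 fell (Thy1, 18.1 to 4.08). Lum, below that minimum at 0 h, had 3.89 ± 0.957 scaled reads then and 39.9 ± 10.1 at 48 h. The part of these shifts in the Hox values was not tested.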

How the data were processed

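TT-seq libraries, 3 at each of 5 times, were sequenced in 2 runs each, so the 30 samples in the labels are 15 libraries. Per the submitters' processing notes, STAR 2.5.2a, DESeq2 and deepTools were used with mm10 (GRCm38). The sources used here do not give the counter, its strand setting, the annotation or the source of the size factors. The deposited values are signal: in each library the authors divided the reads of a unit by 1 size factor. This was checked on the values: 99.9974% to 99.9991% of nonzero values per library were whole multiples of the value of 1 read (0.636 to 0.936 scaled reads, tolerance 0.05), which gave the recovered reads. Columns name the time and replicate number.

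The Hox genes and all lists were chosen with earlier results of these data known. limma 3.58.1 (R 4.3.3) with the intensity trend was fitted to log2(scaled reads + 1) of all 15 libraries, for 15261 genes with a mean of at least 10, each time against 0 h, with two-sided tests and Benjamini-Hochberg adjustment over all genes. Its prior degrees of freedom were infinite, so each gene's SE came from the trend alone. It was tested on simulated data. edgeR 4.0.16 and DESeq2 1.42.0 on recovered reads, other minimums, pseudocounts of 0.5 and 5, rescaling over genes, a replicate block and leaving out each library were alternatives; the fits combining no minimum with rescaling or with left-out libraries were added after seeing the data. DESeq2 gave no adjusted p for any of the 5 fitted Hox genes at 3 h, nor for 1 of them at 12 h. Read ratios pool the 3 libraries of a time, with exact conditional binomial intervals for counting error only. Lengths are gene end minus start. The named genes are the Hox genes and flanking genes, the 3 methyltransferase genes, the up to 4 genes of each list whose adjusted p at 48 h was smallest, and up to 8 non-coding units. Hoxa4, Hoxa6, Hoxa13, Hoxc10 and Hoxc11 were not analysed here, and some genes that the rule names are counted but not reported here by name. Figures used matplotlib 3.10.9. p-values measure the spread between the 3 repeats of a time, which the labels call biological.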

Additional observations from a re-analysis of the deposited data

How the results depend on the processing

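No setting run called a tested Hox gene up, and over all 34 genes without a minimum 0 to 1 were up at 48 h when 1 library was left out. Rescaling over genes reversed, among others, the sign of Hoxa3 at 3 h (0.22), Hoxb9 at 48 h (0.17), Hoxc13 at 24 h (0.044), and at 48 h Cbx5 (0.064), Hotairm1 (0.10), Lnp (0.16), Setdb1 (0.15), Skap2 (0.0073), Suv39h1 (0.28) and Tax1bp1 (0.18). edgeR reversed Hoxa3 at 3 h (0.00059). Hox falls at 3 h became 0 when rescaled and 0 with no minimum. Falls at 12 h became 1 (Hoxb9) when rescaled, also over all 34 genes without a minimum (1). Falls at 24 h became 1 with no minimum and 1 without the trend. Falls at 48 h became 0 when rescaled, 4 with no minimum, 0 by DESeq2 and 2 without the trend, and over all 34 genes 0 when rescaled. Falls of non-coding units became 1 at 24 h and 4 at 48 h with no minimum, and 0 at 48 h when rescaled. Rescaled counts at 48 h were 2 PRC2, 11 PRC1, 3 trithorax, 5 retinoic acid, 4 TALE and 2 flanking genes up, and 5 trithorax, 4 axial and 7 flanking genes down. Rescaled ratios were 0.968, 0.863 and 0.969 over all members at 3, 12 and 48 h, and 0.949 and 0.921 for Hoxa and Hoxb at 48 h.

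Leaving out each library gave 0 to 1 Hox falls at 3 h, 0 to 1 at 24 h and 0 to 1 at 48 h. Over all 34 genes it gave 0 to 1 falls at 3 h, 0 to 2 at 24 h and 1 to 5 at 48 h. It gave 0 to 1 PRC2 rises, 0 to 2 fibroblast marker falls, 1 to 2 pluripotency marker rises, and 0 to 1 (3 h) and 0 to 2 (48 h) falls of units. Log2 changes that crossed 0 included Hoxa3 at 3 h (-0.27 to 0.17), Hoxb3 at 3 h (-0.15 to 0.23), Hoxc13 at 24 h (-0.063 to 0.017) and unit chr6:52158401-52164601 at 12 h (-0.25 to 0.078). The cause was not tested for these changes. Same-numbered libraries did not deviate together over genes (correlations -0.043 to 0.079), so no pairing by number was detected. A shift shared by all genes of a library would not show in these correlations. With the replicate block the Hox falls stayed at 1, 0, 0 and 1 and the rises at 0. Depth limits the 29 low members: 23 of the 34 ratios at 48 h had an upper limit of 2 or more.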

Other observations

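Single repeat copies, some classes of which H3K9 methylation is known to silence, were scarce inside the Hox clusters. Copies of all classes were counted together. The Hoxa and Hoxc spans held 0 listed copies, against 10.7 and 25.4 per 100 kb in the 500 kb on either side. The Hoxd span held 1 copy (1.03 per 100 kb against 5.5). The Hoxb span held 21 (12.1 per 100 kb against 37.9), and without the stretch up to Hoxb13 it held 3 (3.10 per 100 kb against 35.4). Copies that share strand and position with a gene are mostly not listed, so these counts are incomplete.

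Of the 22 copies inside the clusters, none reached a mean of 10 scaled reads, and the highest mean was 7.97.

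The olfactory and vomeronasal receptor genes, another large family of clustered genes, held both rises and falls at 48 h. Without a minimum, limma called 77 of 255 up and 9 down (median log2 change 0.52), beside 7.47% up and 45.4% down among all genes, and in the same fit 0 of the 34 Hox genes rose and 4 fell. Among the 14 receptor genes whose 0 h mean reached 10, 6 rose and 5 fell (median 0.18). The difference between the families was not tested.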
